A study of Mus musculus with 2 samples.

Results

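Ciliated ependymal cells line the central canal of the spinal cord, and their motile cilia move the cerebrospinal fluid. A motile cilium holds an axoneme of microtubules, dynein arms that drive its beat, radial spokes and a central pair that order the beat, and intraflagellar transport that builds it. The transcription factors FOXJ1 and the RFX family switch these genes on. The cells described here were chosen by their UMIs (unique molecular identifiers, the counted molecules) in 8 genes, Ccdc153, Crygn, Agr3, Stoml3, Odf3b, 1110017D15Rik, 2010001K21Rik and 1700012B09Rik: a member had a UMI in 4 or more of them, and in at most 1 of Pdgfra, Cx3cr1, Cldn5, Mog and Col1a2, which mark other cell types. There were 496 members among 17043 kept cells, 357 of 6787 in the library labelled SMA and 139 of 10256 in the library labelled Con.

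The study compared spinal cords of mice with spinal muscular atrophy (SMA) and control mice, all at postnatal day 4 and of strain FVB. SMA mice were mSmn-/-, hSMN22tg/0, so that mouse Smn was lost and a human SMN2 transgene remained, and control mice were heterozygous littermates, mSmn+/-, hSMN22tg/0, that carried the same transgene. The cords of several mice were pooled into 1 library per genotype and dissociated with trypsin and collagenase before 10x 3′ sequencing, so no value below has a replicate, and differences between mice, litters, dissociations and genotypes cannot be told apart. Intervals are 95% and cover counting error only.

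The libraries listed 26921 and 25419 barcodes, of which 8163 were common to both, and SMA barcodes also listed in the control library were left out. Of the 139 control members, 128 had a barcode also listed in the SMA library, at a median of 1135 UMIs there against 6468 in the control library. Members had a median of 5902 UMIs in the SMA library (910 to 17413) and 6342 in the control library (2464 to 16255), and a median of 2444 and 2582 genes. Xist, which is transcribed from the inactive X chromosome, was found in 2 of the 357 SMA members and in 98 of the 139 control members, and a UMI of Ddx3y, Eif2s3y, Kdm5d or Uty, genes of the Y chromosome, was found in 182 and 22. The genotype and the sex of the pooled mice therefore cannot be told apart in any ratio below. Smn1 itself had 139 UMIs in the SMA members and 66 in the control members, 59.5 and 67.9 CPM (counts per 1000000 UMIs), a log2 ratio of -0.19 (-0.62 to 0.25). A count per gene does not show which exon or allele it came from, so it does not check the genotype.

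RFX factors bind the X-box, whose half-site is GTTGCC. Promoters of 300 bases (250 before the start of transcription and 50 after, RefSeq, GRCm38.p6) were at hand for 7 of the 8 rule genes, 14 of the 20 leading genes named further down and 8 of 10 other ciliary markers that the rule did not use. On either strand, GTTGCC stood in a promoter of 3 of the 7 rule genes (42.9%), 4 of the 14 leading genes (28.6%) and 5 of the 8 other markers (62.5%), against 3821 of 27025 gene symbols (14.1%). The longer form GTTNCCATG was in 0 of 7, 1 of 14 and 0 of 8, against 2.22% of symbols, and the forkhead motif GTAAACA in 1 of 7 (Stoml3), 0 of 14 and 0 of 8, against 4.05%. The following 5 promoters are those of the 3 rule genes with the half-site and of Tekt1 and Fam183b, the other markers that hold it at 2 places; Pifo, Enkur and Spag6l hold it too. They are shown 5′ to 3′ on the strand of the gene, with each GTTGCC or its reverse complement in capitals. In all 5 at least 1 half-site began before the start of transcription, at 152 bases for Ccdc153, 18 for 1110017D15Rik, 78 for 1700012B09Rik, 35 for Tekt1 and 67 for Fam183b. A match of 6 letters is a description and not a shown binding site.
Ccdc153, a protein of the nexin-dynein regulatory complex, chr9:44240427-44240726, plus strand: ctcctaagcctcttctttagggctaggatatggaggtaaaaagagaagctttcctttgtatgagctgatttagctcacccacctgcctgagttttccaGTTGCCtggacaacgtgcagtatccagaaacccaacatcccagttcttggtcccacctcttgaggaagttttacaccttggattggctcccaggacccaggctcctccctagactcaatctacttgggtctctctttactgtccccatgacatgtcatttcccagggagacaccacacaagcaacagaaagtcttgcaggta
1110017D15Rik, chr4:41507715-41508014, minus strand: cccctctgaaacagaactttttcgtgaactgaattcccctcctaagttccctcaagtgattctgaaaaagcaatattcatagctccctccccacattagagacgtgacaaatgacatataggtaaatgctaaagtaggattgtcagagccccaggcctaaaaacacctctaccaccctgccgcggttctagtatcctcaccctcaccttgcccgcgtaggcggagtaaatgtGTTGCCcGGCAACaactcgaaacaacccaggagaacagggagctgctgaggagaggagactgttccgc
1700012B09Rik, chr9:14770981-14771280, minus strand: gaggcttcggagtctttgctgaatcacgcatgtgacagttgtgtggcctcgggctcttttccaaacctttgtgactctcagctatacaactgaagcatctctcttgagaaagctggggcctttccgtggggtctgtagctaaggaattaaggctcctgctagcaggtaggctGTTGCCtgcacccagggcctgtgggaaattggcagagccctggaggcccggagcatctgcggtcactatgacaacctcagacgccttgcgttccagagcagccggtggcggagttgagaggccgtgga
Tekt1, a tektin filament of the axonemal wall, chr11:72361833-72362132, minus strand: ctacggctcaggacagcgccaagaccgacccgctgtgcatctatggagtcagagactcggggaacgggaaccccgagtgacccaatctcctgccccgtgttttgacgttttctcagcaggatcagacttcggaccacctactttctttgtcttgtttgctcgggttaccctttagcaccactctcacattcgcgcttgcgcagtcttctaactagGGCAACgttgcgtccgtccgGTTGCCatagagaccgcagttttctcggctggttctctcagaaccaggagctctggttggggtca
Fam183b, a protein of motile cilia, chr11:58801911-58802210, minus strand: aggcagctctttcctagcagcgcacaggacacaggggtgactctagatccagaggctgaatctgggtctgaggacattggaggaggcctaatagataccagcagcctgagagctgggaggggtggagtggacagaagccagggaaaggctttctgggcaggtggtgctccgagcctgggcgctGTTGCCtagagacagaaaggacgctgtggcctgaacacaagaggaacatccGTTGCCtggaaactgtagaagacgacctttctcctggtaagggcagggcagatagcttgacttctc

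The rule genes stood far above their level in the other kept cells in both libraries, as the choice of cells required. Their summed level was 3146 CPM in SMA members and 3086 CPM in control members, against 38.2 and 15.2 CPM in all other kept cells. 1110017D15Rik was found in 96.6% of SMA members and all control members, and Ccdc153 in 43.1% and 44.6%. Cells just inside the threshold, with 4 rule genes, numbered 48 and 18, and cells just outside it, with 3, numbered 48 and 35. Of these, 75.0% and 94.4% of the cells inside had a UMI of Foxj1, the master regulator of motile cilia, against 60.4% and 62.9% of the cells outside. Both sides held a median of 8 of the 10 other ciliary markers (Foxj1, Rsph1, Tekt1, Dnah12, Pifo, Enkur, Spag6l, Cfap126, Tmem212 and Fam183b). Cells with only 2 rule genes also held a median of 8 of them in both libraries, whereas cells with 0 or 1 rule gene held a median of 0. Cells with these markers therefore stood on both sides of the threshold.

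**Figure D1:**
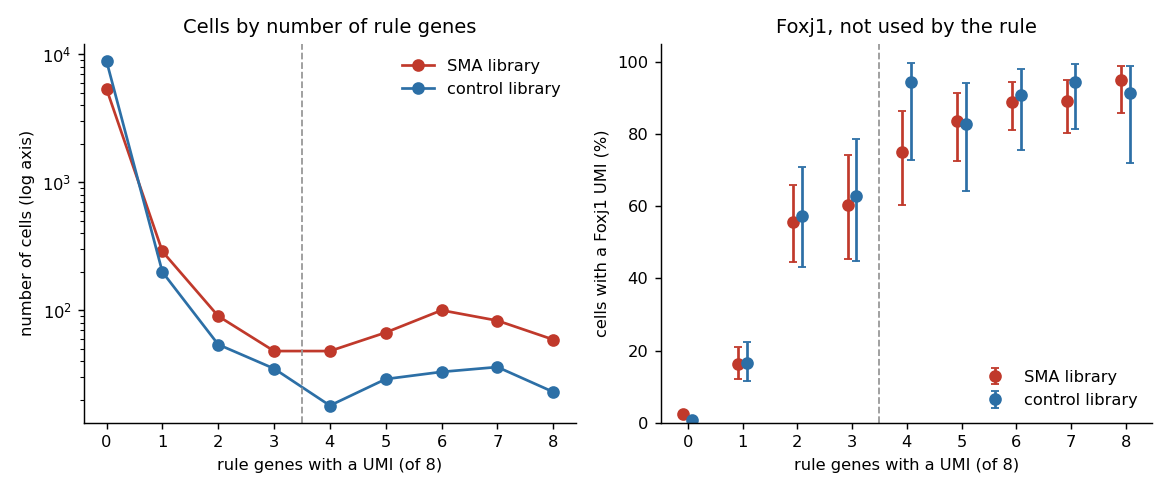
Kept cells with at most 1 excluding gene, by how many of the 8 rule genes had a UMI, in the SMA library (red) and the control library (blue). The left panel gives the number of cells on a log axis and the right panel the share with a Foxj1 UMI, with exact binomial 95% intervals; the dashed line is the threshold of 4 genes. The share rose from 2.43% and 0.883% at 0 genes to over 50% in cells with 2 genes.

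Markers of motile cilia that the rule did not use were present in nearly all members. Rsph1, a radial spoke protein, was found in 98.9% of SMA and 98.6% of control members, and Foxj1 in 87.1% (83.2 to 90.4) and 90.6% (84.5 to 94.9). Of the genes whose promoters are shown, Tekt1 stood at 283 and 272 CPM, in 80.4% and 84.2% of members, and Fam183b at 1499 and 1365 CPM, in 99.2% and 99.3%. The rule gene 1700012B09Rik was found in 93.6% and 93.5% of members. Microglia, which lack motile cilia, had a Foxj1 UMI in 1.66% and 1.11% of cells, at median depths of 6872 and 6878 UMIs. Thinned to 2000 UMIs per cell, the shares with Foxj1 were 56.5% and 54.7% of members and 0.672% and 0.485% of microglia, with 3 SMA members and 0 control members too shallow to thin. Choroid plexus markers were absent apart from Folr1, a folate receptor: Ttr, Kl, Kcne2, Otx2 and Clic6 had 0 UMIs in the members of both libraries. Markers of the neurons that contact the cerebrospinal fluid were also at or near 0, since Pkd2l1, Pkd1l2, Myo3b and Gata2 had 0 UMIs in both.

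The 20 genes that led the members outside the rule were taken as those with the highest CPM over all other kept cells, by the lower of the libraries. They ranged from 59.8 to 182-fold in the SMA library and from 61.8 to 353-fold in the control library, and since the same cells and genes were used to find them these folds are a description. Proteins of the cilium among them were Spag17, a central pair protein (66.9 and 91.8-fold) and Armc4, a docking factor of outer dynein arms (61.6 and 119-fold). Several had other known roles. Bhmt, which passes a methyl group from betaine to homocysteine, was 171 and 271-fold above the other cells, at 78.8 and 86.4 CPM, and had a UMI in 33.3% and 34.5% of members. Slc6a4, the serotonin transporter, was 182 and 61.8-fold above them, at 92.5 and 116 CPM. Folr1 stood at 121 and 129 CPM and in 48.5% and 52.5% of members, against 0.333% and 0.648% of microglia. Traf1, an adaptor of tumour necrosis factor receptors, stood at 242 and 300 CPM and Acot5, an acyl-CoA thioesterase, at 479 and 551 CPM. The other leading genes were Gm16201, Uckl1os, Ankrd66, Got1l1, BC051019, Ccdc33, Dsc3, Plin5, Stmnd1, Hc, 3300002A11Rik, Lrrc36 and Efcab10.

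The level of axonemal genes was set against that in astrocytes of the same library, over every listed gene and with no minimum of UMIs. Of 21 dynein arm genes 20 stood above their level in astrocytes in both libraries, 19 of them by 4-fold or more, and the other had no UMI in members. The same held for 15 of 16 factors of arm assembly, 14 of them by 4-fold or more, and for 32 of 33 proteins of the spokes, the central pair and the nexin link, 31 of them by 4-fold or more. Of 30 proteins inside and on the axonemal microtubules 29 were higher and 27 by 4-fold, with 1 lower in both. Intraflagellar transport, which all ciliated cells use, was higher for 26 of 27 genes but by 4-fold for only 15, and the BBSome and transition zone for 24 of 26 and by 4-fold for 11. Lists outside the cilium lay on both sides: of 18 Sm and LSm genes 12 stood above astrocytes in both libraries and 4 below. Of 22 genes of S phase and mitosis these were 12 and 6, and of 22 of hypoxia and glycolysis 6 and 15. The share over all genes was not counted, here or for the lists below. Summed, the dynein arm genes reached 2083 CPM in SMA members and 2033 CPM in control members against 130.5 and 117 CPM in astrocytes, and the spoke genes 4421 and 4681 CPM against 159 and 130 CPM. Astrocytes here were kept cells with a UMI in 3 or more of 6 astrocyte markers, 1590 and 2033 cells, and oligodendrocyte precursors (OPCs, 2221 and 2233 cells) and microglia (1202 and 1081) were taken in the same way.

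**Figure D2:**
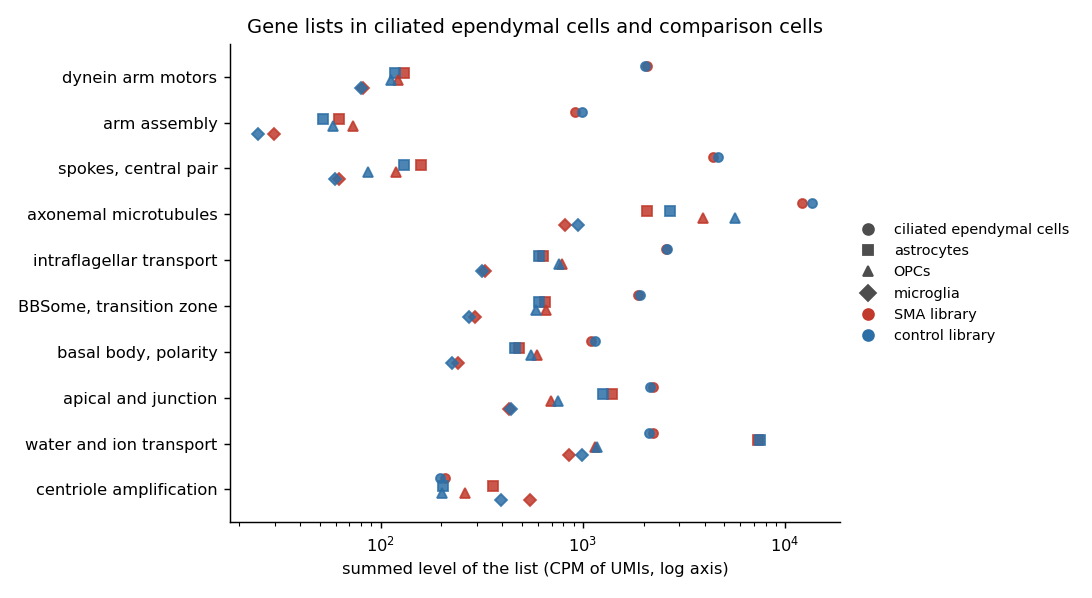
Summed level of 10 gene lists, in CPM on a log axis, in ciliated ependymal cells (circles), astrocytes (squares), OPCs (triangles) and microglia (diamonds) of the SMA library (red) and the control library (blue). The lists of the axoneme stand to the right in ciliated ependymal cells, with dynein arms at 2083 and 2033 CPM against 130.5 and 117 CPM in astrocytes. Genes of centriole amplification do not stand to the right, at 207 and 197 CPM against 361 and 204 CPM. Their sums include Cdkn1a, at 58.7 and 26.8 CPM in ciliated ependymal cells against 237 and 67.8 CPM in astrocytes.

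Transcription factors of motile cilia had mixed levels. Foxj1 stood at 381 and 396 CPM against 11.9 and 6.16 CPM in astrocytes, and Rfx2 at 38.1 and 52.5 CPM against 3.68 and 4.16 CPM, whereas Nfib, a nuclear factor of glia, stood at 197 and 201 CPM against 245 and 245 CPM. Sox9, also a glial factor, stood at 695 and 668 CPM against 487 and 373 CPM. Genes that start multiciliation and multiply centrioles were mixed. The list summed to 484 UMIs in the SMA library and 191 in the control library, 15 of its 17 genes had a UMI, and 7 of the 17 stood above astrocytes in both libraries and 4 below. Cdkn1a, an inhibitor of the cell cycle (137 and 26 UMIs), and E2f5, a transcription factor of the E2F family (94 and 37), had the most UMIs of the list, whereas the genes of the switch itself had few or none. Gmnc, the geminin-like gene at the top of that cascade, and Cdc20b had 0 UMIs in the members of both libraries, which by a floor of 3 counts allows a share of members with a UMI of up to 0.840% in the SMA library and 2.16% in the control library and sets no limit on members that express them. Mcidas had 1 UMI in the SMA library and 0 in the control library, Deup1, which builds deuterosomes, had 11 and 6, and Ccno, a cyclin-related gene of centriole amplification, had 30 and 15. Ccno was found in 7.28% and 8.63% of members and in 0.881% and 0.984% of astrocytes. Deup1 was found in 3.08% and 2.88% of members and in 0 astrocytes of either library. Deup1 was rare in all kept cells, with a UMI in 16 SMA and 8 control cells, of which 11 and 4 were members. Cdkn1a stood at 58.7 and 26.8 CPM in members against 237 and 67.8 CPM in astrocytes, and the list without it was not summed.

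Genes of the cell surface and the secretome lay on both sides of their level in astrocytes. Of 28 secreted proteins and carriers 11 stood above astrocytes in both libraries and 15 below, and the list summed to 32370 and 25831 CPM in members against 72222 and 58508 CPM in astrocytes. Cd24a, a surface glycoprotein of ependyma, stood at 960 and 944 CPM against 49.7 and 70.4 CPM, and Ezr, which links the apical membrane to actin, at 300 and 309 CPM against 116 and 98.6 CPM. Mia, a secreted protein, stood at 2093 and 2208 CPM against 146 and 131 CPM, and Ecrg4, a precursor of secreted peptides, at 895 and 1001 CPM against 76.4 and 59.0 CPM. Mt3, a metallothionein that binds zinc and copper, stood at 7628 and 5298 CPM against 1607 and 938 CPM. Vim, the intermediate filament vimentin, stood at 3926 and 3554 CPM against 726 and 855 CPM. Ifitm3, an interferon-inducible membrane protein, stood at 4621 and 4595 CPM against 183 and 172 CPM, and was 1 of 2 genes, among 20 in the list of antigen presentation and interferon, that stood above astrocytes in both libraries. Aqp4, the water channel of astrocyte endfeet, was lower than in astrocytes, at 147 and 137 CPM against 1373 and 1667 CPM, and Cst3, a protease inhibitor, at 4844 and 3102 CPM against 33131 and 24056 CPM. Mia, Ecrg4 and Rfx2 were chosen after their values were seen.

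One neuronal marker was widespread. Stmn2, which binds tubulin and is known from growing axons, was found in 67.0% of SMA and 67.6% of control members, at 423 and 394 CPM, against 12.7% and 6.66% of microglia and 12.1% and 7.03% of astrocytes. After thinning the shares were 45.2% and 42.4% of members, 4.11% and 2.33% of microglia and 5.02% and 2.83% of astrocytes. Other neuronal genes did not follow it: Snap25, a synaptic protein, stood at 11.99 and 13.4 CPM, Tubb3, neuronal tubulin, at 6.85 and 11.3 CPM, and Syt1, the calcium sensor of synaptic vesicles, had 0 UMIs in both.

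Patterning genes had UMIs in part of the members. These shares were lower after thinning, so cells with and without a UMI are not read as separate kinds of cell. Nkx6-1, a factor of the ventral neural tube, was found in 65.0% of SMA and 61.2% of control members (28.0% and 23.0% after thinning), against 12.3% and 14.0% of astrocytes (4.70% and 4.95% after thinning) and 2.58% and 2.41% of microglia (1.09% and 1.17%). Pax6, which is strongest in the dorsal and intermediate tube, was found in 39.5% and 44.6% (19.5% and 19.4% after thinning), against 27.9% and 29.8% of astrocytes (10.6% and 12.3% after thinning) and 2.41% and 3.33% of microglia (0.756% and 1.17%). Of the 357 SMA members 124 had only Nkx6-1, 33 only Pax6, 108 both and 92 neither, and of the 139 control members 47, 24, 38 and 30. Within the SMA library Nkx6-1 was found in 76.6% of the members with Pax6 and 57.4% of those without, and within the control library in 61.3% and 61.0%. Dorsal genes of the roof plate side, such as Zic1 (9 and 7 UMIs) and Pax3 (9 and 2 UMIs), were close to absent, and 9 of the 21 genes of the dorsal list had 0 UMIs in both.

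A UMI in 3 or more of 22 genes of S phase and mitosis was found in 96 SMA members (26.9%, 22.4 to 31.8) and 45 control members (32.4%, 24.7 to 40.8), and after thinning in 13.8% and 17.3%. Microglia had such a set of UMIs in 37.4% and 28.8% of cells (14.9% and 10.9% after thinning) and astrocytes in 24.8% and 27% (12.5% and 13.7%), so the share in SMA members lay between these classes and that in control members above both, and neither is read as division. Top2a, a topoisomerase of dividing cells, had a UMI in 11.5% and 12.2% of members. The members with 3 or more cycle genes also expressed ciliary genes. The 97 genes of the axoneme, none of them a rule gene and the tubulins left out, took a median of 1.40% and 1.49% of their UMIs against 1.705% and 1.78% in the other members, 0.0421% and 0.0388% in astrocytes and 0.0448% and 0.0412% in cells outside the members with as many cycle genes. Foxj1 was found in 87.5% and 95.6% of them. They were deeper, with a median of 7709 and 7293 UMIs against 5604 and 5802, and in the SMA library 40.6% of them had a UMI of an OPC marker against 16.5% of the other members, while in the control library these were 17.8% and 21.3%. The part of depth and of OPC markers in the cycle genes was not tested.

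Ciliated ependymal cells were a larger share of the SMA library. They made up 5.26% of its kept cells (357 of 6787, 4.74 to 5.82) and 1.36% of the control library (139 of 10256, 1.14 to 1.60), which is 3.88-fold (approximate interval 3.198 to 4.71). With the shared SMA barcodes kept, the SMA share was 3.08% (409 of 13296) and the ratio 2.27-fold, and 35 of the 52 members so added carried the barcode of a control member. Thinned to 2000 UMIs, with 194 SMA and 2279 control cells too shallow, the shares were 3.34% and 1.00%. Against other cells of the same library there were 22.5 members per 100 astrocytes in the SMA library and 6.84 in the control library, 16.1 and 6.22 per 100 OPCs, and 29.7 and 12.9 per 100 microglia. With 5 or more of the 10 other ciliary markers in place of the rule, an alternative chosen after seeing the data, 575 and 275 cells were found, 8.47% and 2.68% of the kept cells. In these data a higher share and a lower yield of the other cells cannot be told apart.

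Tissue from outside the cord was looked for beside this share, because choroid plexus lies in the brain. Among kept cells, 5 of the SMA library and 0 of the control library had a UMI in 3 or more of 6 choroid plexus markers, and Ttr, the transthyretin of choroid plexus, had 3457 and 2 UMIs. None of the 5 had a UMI of the 19 Hox genes of groups 5 to 11 in the list, which are used along the trunk. Among members these Hox genes were found in 99.2% of SMA cells (354 of 357, 97.6 to 99.8) and 99.3% of control cells (138 of 139, 96.1 to 99.98), with a median of 5 genes per cell in both. Astrocytes had a UMI of them in 95.97% and 94.9% of cells and microglia in 33.4% and 34.5%. After thinning the shares were 90.4% and 90.6% of members, 81.8% and 83.2% of astrocytes and 14.9% and 16.5% of microglia. The levels of the 28 Hox genes together were 1297 and 1326 CPM, a log2 ratio of -0.03 (-0.13 to 0.06), and the gene farthest from 0 among the 15 with at least 100 UMIs in members was Hoxa10, a gene of the lumbar cord, at 45.8 and 87.5 CPM (-0.93, -1.36 to -0.50).

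Within the cells, the summed lists of the cilium had log2 ratios of SMA over control between -0.17 and 0.08 over all members. Over the 4641 genes with at least 100 UMIs in members, called tested here, the median log2 ratio of SMA over control was -0.03, and 90% of genes lay between -0.50 and 0.47. A ratio of 2-fold or more was reached upward by 21 genes (0.452%) and downward by 19 (0.409%). Of the 16 dynein arm genes 0 passed 2-fold, their median was -0.07 and the sum over all 21 listed genes differed by 0.03 (-0.04 to 0.11). The sums of arm assembly (-0.11, -0.22 to 0.00), intraflagellar transport (-0.00, -0.07 to 0.07), the BBSome and transition zone (-0.04, -0.12 to 0.04) and transcription factors (0.03, -0.05 to 0.11) were likewise near 0, with 0 genes past 2-fold among 11, 18, 13 and 8 tested. Spokes and central pair were at -0.08 (-0.13 to -0.03) with 0 of 27 past 2-fold, and proteins of the axonemal microtubules at -0.17 (-0.20 to -0.14) with 1 of 25, Tubb4a, lower by 2-fold. The list of axonemal microtubules held the tubulins Tuba1a, Tubb4a and Tubb4b, and the median over its 25 tested genes was -0.02. Its sum differed by -0.37 in astrocytes, -0.54 in OPCs and -0.22 in microglia, and the list without tubulins was not summed. Against only the 41 control members without an Xist UMI the following sums lay lower, at -0.25 for arm assembly, -0.07 for intraflagellar transport, -0.13 for the BBSome and transition zone, -0.15 for spokes and central pair and -0.26 for the axonemal microtubules. The list of multiciliation and centriole amplification summed to 0.08 (-0.17 to 0.33), and of its 2 genes tested 1, Cdkn1a, was higher by 2-fold (1.13). An interval near 0 bounds the difference between these libraries and does not show that the cells are alike.

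Apart from Tubb4a and Cdkn1a, the tested genes of the cilium lists deviated by less than 2-fold. Rsph1 had 1096 CPM in SMA members and 1247 CPM in control members (-0.19, -0.29 to -0.09), and Foxj1 381 and 396 CPM (-0.06, -0.23 to 0.12). Agr3, a disulfide isomerase of ciliated cells, had 277 and 179 CPM (0.63, 0.38 to 0.88), the widest ratio among the 8 rule genes, which otherwise lay between -0.22 and 0.14. The members were chosen by the rule genes, so the ratios of these genes are a description. The sum of the rule genes was at 0.03 over all members and 0.21 in the cells found by the 10 other ciliary markers. Dnaic2, an intermediate chain of the outer dynein arm, had 48.4 and 78.2 CPM (-0.69, -1.13 to -0.25). The tubulin genes with most UMIs were lower in the SMA library: Tuba1a had 3085 and 4105 CPM (-0.41, -0.47 to -0.36) and Tubb4b 1435 and 1939 CPM (-0.43, -0.52 to -0.35). Astrocytes had 1346 and 1934 CPM of Tuba1a and OPCs 2944 and 4408 CPM, so that its difference was present in them too, while Tubb4b stood at 344 and 342 CPM in astrocytes.

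**Figure D3:**
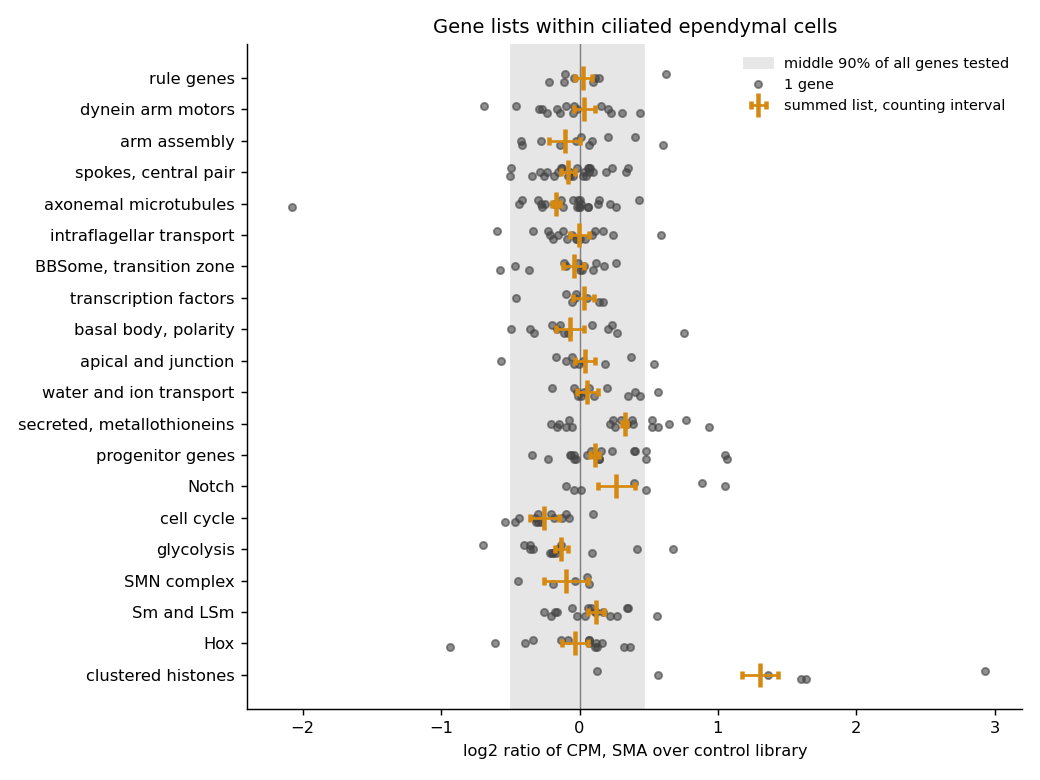
Log2 ratio of CPM, SMA over control library, within ciliated ependymal cells. Each point is a gene with at least 100 UMIs, the orange mark is the sum over the list with its exact 95% counting interval, and the grey band holds the middle 90% of all 4641 genes tested. Sums of the cilium lists lie around 0, and 4 of the 6 clustered histone genes lie beyond 1.

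Clustered histone genes were higher in the SMA members. Of 17 in the list 6 had at least 100 UMIs, all 6 were above 0 and 4 were past 2-fold, where 0.452% of all genes were, and the sum over all 17 was 1422 CPM in SMA members and 577 CPM in control members (1.30, 1.17 to 1.43). Hist1h2bc, an H2B gene, had 1961 and 317 UMIs, 840 and 326 CPM (1.36, 1.19 to 1.54), and was found in 96.9% and 72.7% of members. Hist1h4h, an H4 gene, had 201 and 11 UMIs, 86.1 and 11.3 CPM (2.93, 2.06 to 3.95), Hist1h4i 134 and 43.2 CPM (1.64, 1.17 to 2.14), and Hist1h1c, a linker histone, 153 and 50.4 CPM (1.60, 1.17 to 2.06). Hist3h2a (62.5 and 42.2 CPM, 0.57, 0.06 to 1.10) and Hist3h2ba (48.4 and 44.3 CPM, 0.13, -0.39 to 0.67) lie outside the large histone cluster of chromosome 13. The other cell classes had the same direction: the sum differed by 1.30 in astrocytes, 1.08 in OPCs and 1.72 in microglia. As a sum the list was higher in the members than in these classes, which had 757 and 307 CPM in astrocytes, 736.5 and 348 CPM in OPCs and 541 and 164 CPM in microglia. The 22 genes of S phase and mitosis summed to 997 and 1189 CPM in members (-0.25, -0.36 to -0.15), and their sum was at 0.06 with no upper limit on genes per cell, -0.50 without the members holding markers of other types, -0.58 against control members without an Xist UMI and -0.61 with no excluding gene.

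**Figure D4:**
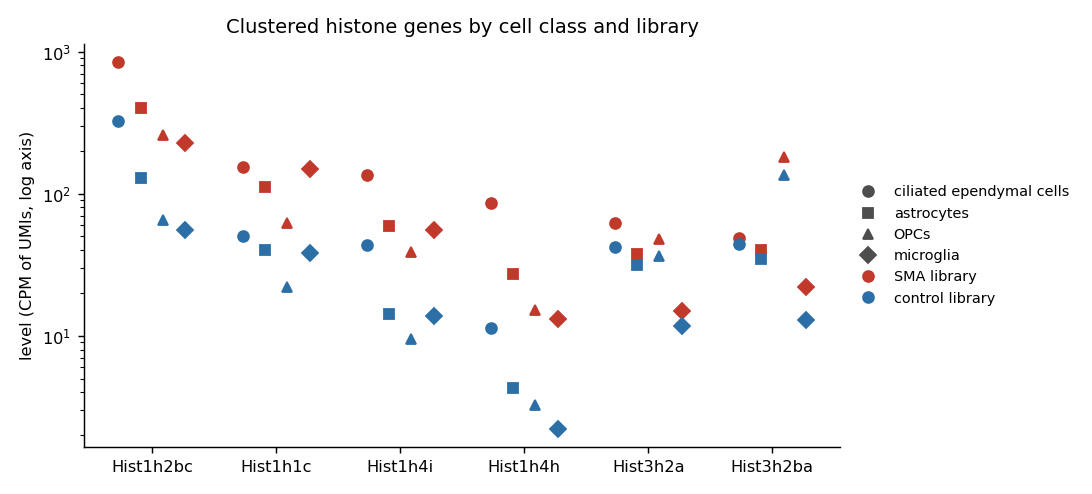
Level of 6 clustered histone genes, in CPM on a log axis, in ciliated ependymal cells (circles), astrocytes (squares), OPCs (triangles) and microglia (diamonds), in the SMA library (red) and the control library (blue). For Hist1h2bc, Hist1h1c, Hist1h4i and Hist1h4h the red point lies above the blue point in each of the 4 classes, by 1.36 to 2.93 on the log2 scale in ciliated ependymal cells.

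mt-Nd4l, a subunit of respiratory complex I, had 424 CPM in SMA members and 156 CPM in control members (1.44, 1.19 to 1.69), and differed by 1.41 in astrocytes, 1.28 in OPCs and 1.38 in microglia. Ddx3y, on the Y chromosome, had 73.2 and 18.5 CPM (1.98, 1.28 to 2.77), and Xist 0.856 and 622 CPM. Against only the 41 control members without an Xist UMI the ratio of Ddx3y was 0.19, and that of Hist1h4h 3.59.

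Most of the other genes with the highest or lowest ratios are known from other cell types. Among the 12 highest, C1qa, C1qb and C1qc, the chains of complement C1q, Tyrobp and Fcer1g, receptor adaptors of microglia, and Ccl4, a chemokine, are known from microglia. Ccl4 had 128 and 4 UMIs (3.74, 2.34 to 5.63), and 44.5% of the SMA count lay in a single member. C1qa had 251 and 39 UMIs in 55 and 17 members (1.42, 0.93 to 1.95). The 6 microglia markers of the fixed list summed to 75.8 and 20.6 CPM in members, with 5 SMA members and 1 control member holding 3 or more of them and 70.6% and 35.0% of the UMIs. In the cells found by the 10 other ciliary markers the ratios were -0.47 for C1qa, -0.11 for C1qb and -1.34 for Ccl4. The part of microglial RNA in these ratios was not tested. Gem, a small GTPase, was at 63.0 and 20.6 CPM (1.61, 0.93 to 2.37), and at 0.37 in those cells.

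Among the 12 lowest beside Xist were genes of myelin: Pmp22 of peripheral myelin, and Mag, Cldn11 and Mobp of oligodendrocytes. Mag, an adhesion molecule of the myelin sheath, had 75 UMIs in SMA members and 247 in control members (-2.98, -3.38 to -2.61), and 77.3% of the control count lay in 1 member. Without the member of each library richest in it, the ratio was -1.28. The same calculation moved Cldn11 from -2.37 to -1.17, Mobp from -1.69 to -0.71 and Pmp22 from -2.18 to -0.22. The other genes of this group were Tubb4a (-2.08), Cryab (-1.96), Aplp1 (-1.90), Ramp2 (-1.42) and Bcas1 (-1.34), of which only Tubb4a and Aplp1 stayed past 2-fold, at -1.04 and -1.35. Of the 19 genes past 2-fold downward, 16 had 20% or more of their control UMIs in 1 member, 7 of them in the same cell, which had 13174 UMIs, 4 of the 6 Schwann cell markers and all 6 oligodendrocyte markers. Oligodendrocyte markers summed to 801 CPM in SMA members and 2459 CPM in control members, and Schwann markers to 620 and 2284 CPM, and 3 or more oligodendrocyte markers were held by 43 of 357 and 30 of 139 members. Against only the 41 control members without an Xist UMI, 7 of these genes turned to the other direction (Mag, Cldn11, Tubb4a, Cryab, Mobp, Ramp2 and Bcas1). The 7 genes past 2-fold downward outside the 12 lowest were Nfasc, Fscn1, Cnp, Sept9, Mbp, Sirt2 and Lrrc10b. The part of myelinating cells in these ratios was not tested. Lrrc10b differed from the others in where it was found. It stood 21.6 and 53.5-fold above the other kept cells, at 39.4 CPM in SMA members and 85.4 CPM in control members (-1.12, -1.56 to -0.67) and in 23.0% and 39.6% of members, and its ratio was -1.08 without the richest members and -0.95 without the members holding markers of other types.

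**Figure D5:**
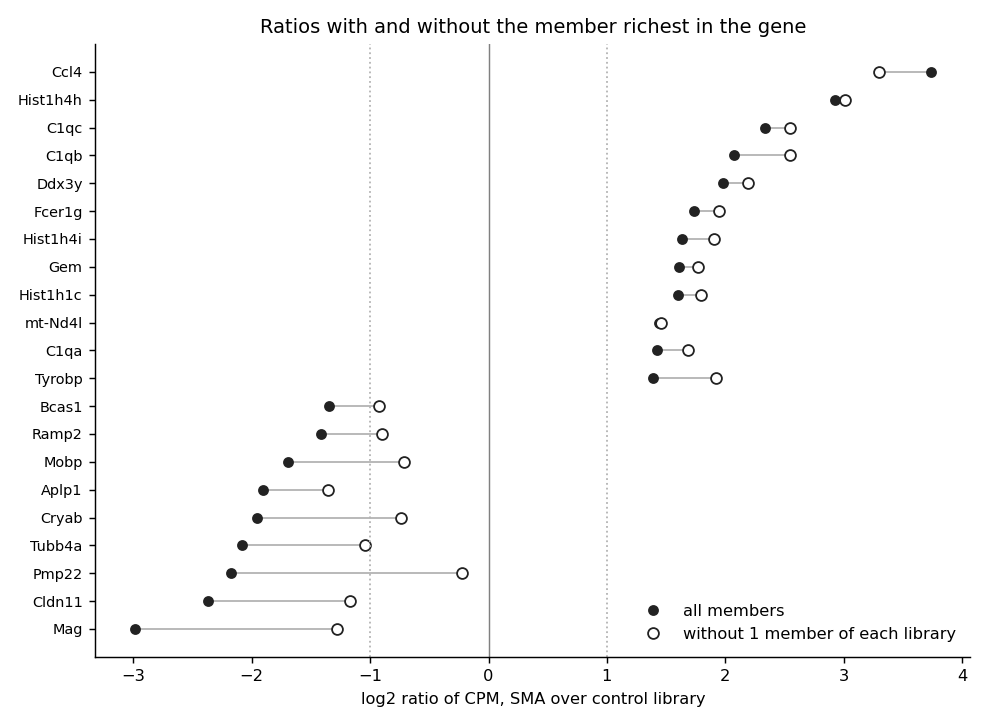
Log2 ratio, SMA over control library, of the 12 genes with the highest and 9 of those with the lowest ratios (Xist left out), over all ciliated ependymal cells (filled) and without the 1 cell of each library that holds most UMIs of the gene (open); dotted lines mark 2-fold. The 12 higher genes stay above 1, and Mag moves from -2.98 to -1.28.

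With members left out that had 3 or more of 6 markers of any of 7 other cell types, chosen after seeing the data, 293 SMA and 99 control members were left. Of the 21 genes higher by 2-fold 12 stayed so and all 21 kept their direction, and of the 19 lower genes 6 stayed and 18 kept their direction. Among those that stayed were the histone genes Hist1h2bc (1.19), Hist1h4h (2.87), Hist1h4i (1.76) and Hist1h1c (1.27), mt-Nd4l (1.45) and Frat2, a regulator of Wnt signalling (1.19 before and 1.15 after). Also past 2-fold after this step were C1qb (2.71, on 55 and 3 UMIs), C1qc (1.90, on 52 and 5), Ccl4 (1.32, on 14 and 2), Gem (1.49), Ddx3y (1.47) and Lrrc8a (1.02), while C1qa (0.54), Fcer1g (0.63) and Tyrobp (0.99) were not. Cdkn1a, an inhibitor of the cell cycle that p53 induces, went from 58.7 and 26.8 CPM (1.13, 0.52 to 1.80) to a ratio of 0.89, and was at -0.04 in the cells found by the 10 other ciliary markers, Notch2 from 87.3 and 42.2 CPM (1.05, 0.56 to 1.57) to 0.94, and Gfap, the filament of astrocytes, from 90.3 and 43.2 CPM (1.06, 0.58 to 1.58) to 0.82. The 9 genes past 2-fold upward outside the 12 highest were Hist1h2bc, Frat2, Cdkn1a, Mr1, Gfap, Notch2, Pim1, D330023K18Rik and Lrrc8a.

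Over all members the remaining lists differed by less than 2-fold as sums. Secreted proteins and metallothioneins summed to 32370 CPM in SMA members and 25831 CPM in control members (0.33, 0.30 to 0.35), with 0 of 19 genes past 2-fold. That sum was at 0.15 without the members that held markers of other types, at 0.18 in the cells found by the 10 other ciliary markers and at 0.46 against control members without an Xist UMI. The 6 astrocyte markers moved with it: they summed to 536.5 CPM in SMA members and 435 CPM in control members (0.30, 0.14 to 0.46), with 5 of 5 tested above 0, and were at -0.19 without the members that held markers of other types. Their part in the ratios of this list was not tested. Mt3 was at 0.53 (0.48 to 0.57), Mt1 at 0.57 (0.51 to 0.63), Apoe, a lipid carrier, at 0.52 (0.44 to 0.60) and Cst3 at 0.64 (0.59 to 0.70), while Nnat was at -0.15 (-0.20 to -0.10). Without the members that held markers of other types Mt3 was at 0.49 and Mt1 at 0.46, but Cst3 at 0.14. Outside the members, the sum of the secreted list differed by 0.30 in astrocytes, 0.17 in OPCs and -0.10 in microglia. Notch genes summed to 776 and 645 CPM (0.27, 0.14 to 0.40), with Hes1, a Notch target, at 0.39 (0.17 to 0.61) and 1 of 7 genes, Notch2, higher by 2-fold, where 0.452% of all genes were. Against control members without an Xist UMI the Notch sum was at 0.51. Of 14 cycle genes 13 were below 0 and 0 past 2-fold. Of 14 genes of glycolysis and hypoxia 11 were below 0 and 0 past 2-fold, with Gapdh, a glycolytic enzyme, at -0.17 (-0.25 to -0.09), and Aldoc, an aldolase of astrocytes, at 0.68 (0.50 to 0.86). The sum of the glycolysis and hypoxia list was at -0.13 (-0.18 to -0.08), against 0.06 in astrocytes, -0.22 in OPCs and -0.15 in microglia. How many of all tested genes lay below or above 0 was not counted, and their median was -0.03. Among stress genes of dissociation 0 of 21 passed 2-fold and the sum was at 0.01 (-0.01 to 0.04), or 0.41 against control members without an Xist UMI, with Fos, an immediate early gene, at 5397 and 4802 CPM and Hsp90aa1, a chaperone, at 1397 and 2115 CPM (-0.60, -0.68 to -0.52).

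Genes of the SMN complex, which loads Sm proteins on small nuclear RNAs, summed to 448 and 481 CPM (-0.10, -0.26 to 0.06), with 0 of 5 past 2-fold. Strap, which binds the complex, was at 0.07 (-0.27 to 0.41), Clns1a, which chaperones Sm proteins, at -0.03 (-0.43 to 0.38) and Gemin7, a subunit, at -0.44 (-0.86 to -0.01). The Sm and LSm proteins themselves summed to 3780 and 3473 CPM (0.12, 0.06 to 0.18), with 11 of 17 above 0 and 0 past 2-fold. Snrpg was at 0.27 (0.10 to 0.44), Snrpd2 at 0.08 (-0.08 to 0.24), Snrpb at 0.04 (-0.14 to 0.22) and Snrpd1 at 0.11 (-0.09 to 0.32). Their sum differed in the same direction in astrocytes (0.22), OPCs (0.18) and microglia (0.30). Of 7 p53 targets tested 1, Cdkn1a, was higher by 2-fold, where 0.452% of all genes were, and Cdkn1a differed by 1.80 in astrocytes, 1.55 in OPCs and 0.63 in microglia.

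Lists of polarity, the apical surface, transport and ventral position lay near 0 as sums over all members. Against only the 41 control members without an Xist UMI, however, transport was at 0.43, progenitor genes at 0.32, the ventral list at 0.30 and Wnt, BMP and hedgehog genes at 0.30. Planar polarity and basal body anchoring was at -0.07 (-0.17 to 0.03), with Cby1, a protein of the basal body, at 181 and 200 CPM, and the apical surface and junctions at 0.04 (-0.03 to 0.11), with Gja1, a gap junction channel, at 292 and 257 CPM. Water, ion and metabolite transport was at 0.06 (-0.02 to 0.13), with Slc1a3, a glutamate transporter, at 462.5 and 475 CPM, and 4 of its 20 genes stood above astrocytes in both libraries and 13 below. Of these lists 0 genes passed 2-fold. Progenitor genes were at 0.11 (0.07 to 0.14), with Fabp7, a fatty acid binding protein of radial glia, at 1582 and 1461 CPM. Of 20 progenitor genes tested 2, Gfap (1.06) and Notch2 (1.05), were higher by 2-fold, where 0.452% of all genes were, and both fell under 2-fold without the members holding markers of other types (0.82 and 0.94). Without those members the sum of the progenitor list was at 0.02. The ventral list was at -0.00 (-0.17 to 0.16) and the dorsal list at -0.41 (-0.66 to -0.17), of which 2 genes were tested, Pax6 (-0.40, -0.73 to -0.07) and Arxes1 (-0.76), which is not known as a gene of dorsal patterning, so the sum is not read as one of dorsal identity. Wnt, BMP and hedgehog genes were at 0.03 (-0.13 to 0.19), with Ptch1, the hedgehog receptor, at 89.1 and 89.5 CPM, and antigen presentation and interferon genes at 0.02 (-0.03 to 0.07). Haemoglobin was at -0.49 (-0.51 to -0.47) over all members, -0.79 with no excluding gene, -1.30 against control members without an Xist UMI and 0.43 without the members holding markers of other types, and 15 SMA and 7 control members held 96.7% and 97.5% of the UMIs of the erythroid markers.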

How the data were processed

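The authors deposited raw counts of UMIs per gene and barcode, made with Cell Ranger (4.0.0 in the file headers, while the study's methods name an earlier version) from 10x 3′ libraries, with mm10 named in the submitters' processing notes along with Seurat 3.2.2. Kept barcodes had 200 to 4000 genes and a mitochondrial share under 10%, and SMA barcodes also listed in the control library were dropped. No doublet caller was run. UMIs were summed over members and given as CPM. Intervals are exact: Poisson for sums, Clopper-Pearson for shares, conditional binomial for ratios; those of ratios of shares are approximate. With 1 library per group no test was made. Genes needed 100 UMIs over both libraries, and 2-fold (log2 of 1) was the limit for counting a gene. Cells were thinned to 2000 or 1000 UMIs without replacement. The members and the 42 gene lists were chosen with earlier results of these data known. Named genes were the rule genes, 20 leading genes, the 12 highest and 12 lowest ratios, the 4 genes with most UMIs per list, genes past 2-fold and fixed markers. Mia, Ecrg4, Rfx2, Dnaic2, Apoe, Hoxa10, Hist3h2a and Hist3h2ba were chosen after their values were seen, and 2 of the lowest ratios are not reported here. Gene positions came from GENCODE M21 (32235 of 32285 identifiers matched), promoters from RefSeq GRCm38.p6. Software was Python 3.11.15, NumPy 2.4.6 and SciPy 1.17.1, tested on simulated data. The alternatives are given in the closing section.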

Additional observations from a re-analysis of the deposited data

How the results depend on the processing

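No paired analysis was possible because each group is 1 library. The fold of shares (log2 1.956) kept its direction under all 12 alternatives. It moved beyond its interval to 1.18 with shared barcodes kept, 1.54 over cells of at least 5000 UMIs, 1.59 thinned to 1000 UMIs and 1.66 with 5 or more of the 10 other ciliary genes. Counted again under each setting with its own minimum of UMIs, the genes higher by 2-fold (21) numbered 11 without members holding other cell types' markers, 133 against control members without an Xist UMI, 75 at a minimum of 50 UMIs and 4 at 300. The lower genes (19) numbered 36 with no upper gene limit, 8 with 5 or more rule genes, 5 without members holding other types' markers, 59 at 50 UMIs and 8 at 300. Fewer cells or another minimum change how many genes are counted, and the cause of the other changes was not tested. Dynein arms (0.03) moved to 0.13 and spokes (-0.08) to 0.00338 with no upper gene limit, spokes to -0.15 against control members without an Xist UMI, and histones (1.30) to 1.16 without members holding other types' markers. Of the 5 lists past 2-fold and the genes with the 12 highest and 12 lowest ratios, some turned to the other direction. Against control members without an Xist UMI these were the lists of sex genes (0.11), oligodendrocyte (0.049) and Schwann cell markers (0.048), Bcas1 (0.40), Cldn11 (1.44), Cryab (0.91), Mag (0.59), Mobp (0.23), Ramp2 (1.70) and Tubb4a (1.31). With no upper gene limit these were Cldn11 (0.20) and Mobp (0.70), with 5 or more rule genes Cldn11 (0.44), Mag (0.12) and Tubb4a (0.089), and with no excluding gene Cryab (0.13). With the 10 other ciliary genes these were the microglia list (-0.36), C1qa (-0.47), C1qb (-0.11), C1qc (-0.41), Ccl4 (-1.34), Fcer1g (-0.050) and Tyrobp (-0.28). Cdkn1a, outside the 12 highest, turned to -0.043 with the 10 other ciliary genes. Of the 37 lists under 2-fold, 19 turned beyond their interval under 1 or more alternatives: 8 with no upper gene limit, 8 without members holding other types' markers, 7 against control members without an Xist UMI, 7 with the 10 other ciliary genes, 3 with no excluding gene and 2 with each cell weighted equally. Endothelial markers (-0.98) turned to 0.60 with no upper gene limit, 0.40 with no excluding gene and 1.496 against control members without an Xist UMI, OPC markers (-0.49) to 1.22 with no excluding gene, and astrocyte markers (0.30) to -0.13 with no upper gene limit. Fscn1, outside the 12 lowest, turned to 0.32 without members holding other types' markers. The 2 alternatives that replace the rule by other ciliary genes or leave out members with other types' markers, and ratios without the richest member, were chosen after seeing the data.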
